A study of Mus musculus with 4 samples.

Results

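Nuclear genes of respiratory complex I were compared between hippocampi of mice that underwent surgery and hippocampi of control mice. Their members were the genes of the deposited gene table whose symbol begins with Nduf, pseudogenes left out, which gave 46 of 31060 genes. Of these, 38 were named as subunits (Ndufa, Ndufb, Ndufc, Ndufs and Ndufv) and 8 as assembly factors (Ndufaf). The surgery group was made of wild-type C57BL/6 mice that had an exploratory laparotomy under sevoflurane and whose hippocampi were taken on day 3. The control group was made of wild-type mice with neither surgery nor anesthesia before sampling, labelled day 0. Both groups had 2 libraries, were 12 months old by the labels and were anesthetized when the tissue was taken. By the paper, surgery mice also received ropivacaine under the skin at the incision. The comparison therefore holds anesthesia, surgery and this analgesia together. The sources used here do not say whether replicates came from separate animals. A p-value given below therefore reflects only how far these libraries vary, which may be technical.

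Complex I, the NADH dehydrogenase of the inner mitochondrial membrane, takes electrons from NADH, passes them to ubiquinone and pumps protons across the membrane, and neurons draw most of their ATP from the gradient it helps to build. Its core subunits carry the flavin, the iron-sulfur clusters and the proton channels, and the accessory subunits around them hold the enzyme together. The subunits are grouped into the N module, which binds NADH, the Q module, which reduces ubiquinone, and the proximal and distal parts of the membrane arm. Nuclear genes encode most of them and mitochondrial DNA the hydrophobic core of the membrane arm, while assembly factors build the enzyme and are not part of it when it is finished.

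Gene counts totalled 19318085 and 18159582 in the surgery libraries and 19193382 and 18002695 in the control libraries. Levels are given as CPM, the count relative to the library total after TMM scaling. Neuronal and hippocampal marker genes were found in every library, with summed levels of 9161 and 9755 CPM in surgery against 10429 and 8848 CPM in control for 7 neuronal markers. Oligodendrocyte markers summed to 4832 and 3420 CPM in surgery and 4798 and 4978 CPM in control, and those of choroid plexus to 3617 and 4533 CPM in surgery and 51.5 and 3505 CPM in control. Control replicate 1 thus stood apart in choroid plexus genes. Red blood cell markers, 4 genes, summed to 48.4 and 59.2 CPM in surgery and 46.4 and 103 CPM in control, highest in control replicate 2. Across all tested genes, the level in a library relative to the gene's mean correlated with GC content at Spearman's rho of -0.49 and -0.045 in the surgery libraries and 0.15 and 0.45 in the control libraries, a description over 17209 genes that share these libraries. The part of cell makeup in the values below was not tested, and that of GC content was not tested beyond the fits with an offset. In bulk tissue, fewer cells of a type and less RNA per cell cannot be told apart.

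With all libraries and the count filter, none of the 46 nuclear genes passed edgeR's test. At an adjusted p under 0.05 edgeR's quasi-likelihood test called 0 of the 46 genes, where it called 0% of all 17236 tested genes. DESeq2 called 0 of the 42 members to which it gave an adjusted p, and 0.636% of the 9587 genes that had one. The other 4 members (Ndufaf2, Ndufaf8, Ndufaf6 and Ndufa4l2) had no adjusted p in DESeq2. limma-voom called 0 members and 0% of all tested genes. At an unadjusted p under 0.05 edgeR gave 8 of the 46 (17.4%), against 9.96% of all tested genes. Of these 8, 2 were higher in the surgery group and 6 lower, where 4.33% of all genes were higher and 5.63% lower. The members are not independent of each other, and the count is a description. Over the same 17236 genes, DESeq2 gave 7 members at that level, with 7.03% of all genes, and limma-voom 7, with 10.5%.

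The number depended on single libraries. It was 7 without surgery replicate 1 (6.58% of all genes), 15 without surgery replicate 2 (15% of all genes), 14 without control replicate 1 (10.6%) and 5 without control replicate 2 (8.49%). The direction of the members changed as well. Without control replicate 1, 1 was higher (4.25% of all genes) and 13 lower (6.35%), whereas without control replicate 2, 4 were higher (5.27%) and 1 lower (3.22%). At the adjusted threshold, edgeR called 1 member without surgery replicate 1 (0.606% of all genes), 7 without surgery replicate 2 (4.09%), 2 without control replicate 1 (0.283%) and 0 without control replicate 2 (1.48%). Each of these fits sets 1 library against 2, so the lone library is assumed to vary like the pair, and every p below with a library left out rests on that.

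Subunits lay slightly below and assembly factors close to the middle of all genes. The median log2 fold change (surgery over control) was -0.12 over the 38 subunits, with 12 positive and 26 negative values between -0.67 and 0.36, and it was -0.025 without control replicate 2. Over the 8 assembly factors it was 0.052, with 5 positive and 3 negative values between -0.79 and 0.51, and its sign turned without surgery replicate 1 (-0.0027) and with counts summed from transcripts (-0.24). Transcript counts of Ndufaf7 were 50 and 57 in surgery and 23 and 100 in control, far below its gene counts. Those were 728 and 549 in surgery and 569 and 576 in control. The median over all tested genes was 0.00053. Among subunits 1 was higher and 4 were lower at an unadjusted p under 0.05 (13.2%). Among the 8 assembly factors 1 was higher and 2 were lower (37.5%). Over all tested genes the share was 9.96%, with 4.33% higher and 5.63% lower. The difference between subunits and assembly factors was not tested.

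**Figure D1:**
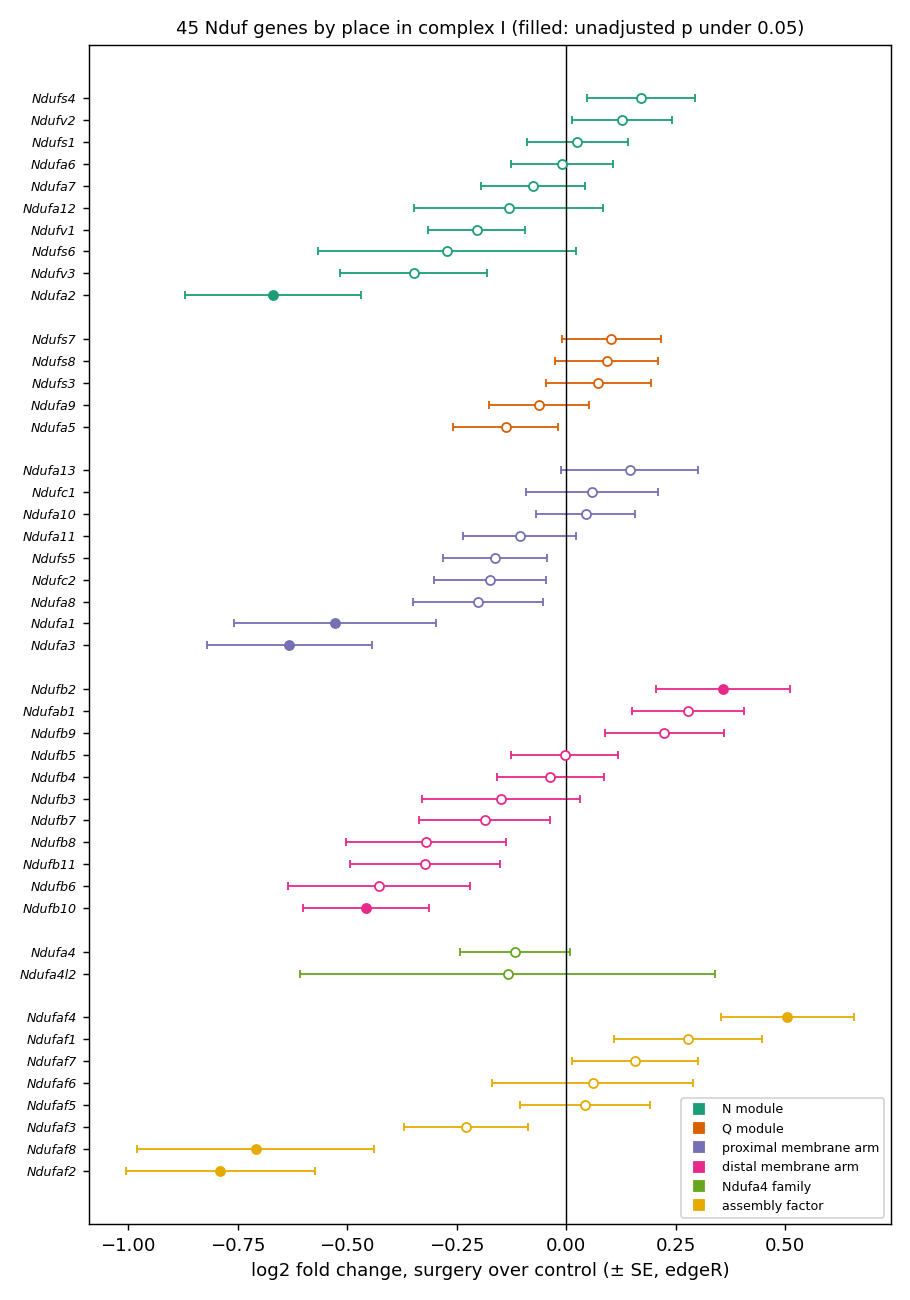
Log2 fold change, surgery over control, of 45 of the 46 genes (edgeR estimate, bars are 1 standard error), grouped down the page by place in complex I, with filled points for an unadjusted p under 0.05. Most estimates lie between -0.2 and 0.2, and the 8 filled points comprise Ndufaf4 and Ndufb2 on the positive side and 6 genes on the negative side.

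The 2 lowest estimates among the 46 and the highest belonged to assembly factors. Ndufaf2 (ENSMUSG00000068184, chromosome 13, 108002715 to 108158623, minus strand, mm10), an assembly factor related to the subunit Ndufa12 that acts when the N module is joined, had 6.44 and 6.52 CPM in surgery against 9.5 and 12.9 CPM in control. Both surgery libraries lay below both control libraries and close to each other, on counts of 124 and 117 against 179 and 239. Its log2 fold change was -0.79 ± 0.22 (SE, edgeR unadjusted p = 0.00402, adjusted p = 0.369).

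Ndufaf4 (ENSMUSG00000028261, chromosome 4, 24898083 to 24905001, plus strand), which works with Ndufaf3 early in the assembly of the Q module, had 44.9 and 34.9 CPM in surgery against 26.8 and 29.4 CPM in control. Here both surgery libraries lay above both control libraries. Its log2 fold change was 0.51 ± 0.15 (SE, edgeR unadjusted p = 0.00719, adjusted p = 0.377). Without surgery replicate 2 its adjusted p was 0.00583, and without the other libraries in turn it stayed above 0.05. The estimate was 0.31 without surgery replicate 1 (adjusted p = 0.874) and 0.31 with an offset for GC content.

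Ndufaf8 (ENSMUSG00000078572, chromosome 11, 120098928 to 120100705, plus strand), the partner of the hydroxylase Ndufaf5, had 5.09 and 7.29 CPM in surgery against 7.8 and 12.4 CPM in control. The groups did not overlap, although surgery replicate 2 and control replicate 1 were near each other. For Ndufaf8 the log2 fold change was -0.71 ± 0.27 (SE, edgeR adjusted p = 0.456), and the adjusted p was 0.0319 without surgery replicate 2. The estimate was -0.47 without surgery replicate 1 (adjusted p = 0.917) and -0.33 without control replicate 2 (adjusted p = 0.883).

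The upstream sequences of these 3 assembly factors and of Ndufb2 are shown because they are the 2 members with the lowest and the 2 with the highest log2 fold change. They come from RefSeq (GRCm38.p6). Each line is the 250 bases before RefSeq's start site, 5′ to 3′ on the gene's strand, and capitals mark a motif. The motifs searched on both strands were NRF1 (GCGCANGCG), ETS family (CCGGAAG), ESRRA (AAGGTCA), CREB (TGACGTCA) and YY1 (AAGATGGC), short forms of the sites of factors known to act at genes of respiration. Matches of different motifs did not overlap in these 4 sequences.
Ndufaf2, chr13:108158626-108158875, minus strand: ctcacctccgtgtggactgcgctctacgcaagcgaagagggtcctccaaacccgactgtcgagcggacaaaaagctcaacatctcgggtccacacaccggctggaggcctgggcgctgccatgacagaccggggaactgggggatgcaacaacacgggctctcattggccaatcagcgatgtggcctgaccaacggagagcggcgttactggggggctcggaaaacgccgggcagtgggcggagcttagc
Ndufaf4, chr4:24897833-24898082, plus strand: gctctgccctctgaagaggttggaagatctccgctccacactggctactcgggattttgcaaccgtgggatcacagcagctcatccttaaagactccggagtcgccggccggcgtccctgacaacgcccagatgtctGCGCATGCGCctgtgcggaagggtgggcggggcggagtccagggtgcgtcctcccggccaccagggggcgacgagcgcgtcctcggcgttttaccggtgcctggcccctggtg
Ndufaf8, chr11:120098684-120098933, plus strand: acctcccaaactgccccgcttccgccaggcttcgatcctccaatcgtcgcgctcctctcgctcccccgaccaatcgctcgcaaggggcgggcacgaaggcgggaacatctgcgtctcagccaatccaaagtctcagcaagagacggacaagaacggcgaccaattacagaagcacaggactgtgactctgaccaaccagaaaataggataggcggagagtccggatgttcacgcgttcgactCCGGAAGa
Ndufb2, chr6:39592315-39592564, plus strand: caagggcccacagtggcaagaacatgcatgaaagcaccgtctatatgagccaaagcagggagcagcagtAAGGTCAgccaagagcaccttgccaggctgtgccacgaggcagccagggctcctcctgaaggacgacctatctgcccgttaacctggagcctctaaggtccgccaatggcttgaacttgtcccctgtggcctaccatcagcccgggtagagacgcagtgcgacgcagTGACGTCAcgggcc
Ndufaf4 held 2 overlapping NRF1 matches, 1 on each strand, that begin 113 and 112 bases before the start, Ndufaf8 an ETS match at 8 bases and Ndufb2 an ESRRA match at 181 and a CREB match at 14 bases. None of the 5 motifs was found in the window of Ndufaf2. RefSeq matched 40 of the 46 genes by symbol. The NRF1 motif was found in 7 of these 40 (17.5%), namely Ndufa5, Ndufa8, Ndufa11, Ndufaf4, Ndufb4, Ndufs5 and Ndufs6, against 5.86% of 27025 RefSeq genes. A gene was counted if any of its windows of 250 bases held a match. ETS matches were in 12.5% of the members and 7.83% of all these genes, ESRRA matches in 7.5% and 4.7%, CREB matches in 7.5% and 1.77%, and YY1 matches in 0 of 40 members and 1.83% of all these genes. The RefSeq genes were neither limited to those tested here nor matched to the members in GC content. A match is a run of letters and was not examined for binding.

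Among the subunits with an unadjusted p under 0.05, 4 were lower in surgery and 1 was higher. Ndufa3 (ENSMUSG00000035674, chromosome 7, 3617373 to 3620327), an accessory subunit of the proximal membrane arm, had 23.5 and 32.3 CPM in surgery against 36.3 and 50.04 CPM in control. The groups did not overlap, but the libraries within each group were spread widely. For Ndufa3 the log2 fold change was -0.63 ± 0.19 (SE, edgeR unadjusted p = 0.00687, adjusted p = 0.377). The adjusted p was 0.000217 without surgery replicate 2. Without surgery replicate 1 the estimate was -0.42 (adjusted p = 0.497), and without control replicate 2 it was -0.37 (adjusted p = 0.59).

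Ndufa2 (ENSMUSG00000014294, chromosome 18, 36742332 to 36744557), an accessory subunit of the N module with a thioredoxin fold, had 25.1 and 20.6 CPM in surgery against 28.4 and 44.3 CPM in control. Control replicate 2 stood far above the other 3 libraries, and control replicate 1 was near surgery replicate 1. With all libraries the log2 fold change was -0.67 ± 0.20 (SE, edgeR unadjusted p = 0.00714, adjusted p = 0.377). It was -0.31 without control replicate 2, with an adjusted p of 0.751. The adjusted p was 0.0102 without surgery replicate 1 and 0.0265 without control replicate 1.

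Ndufb10 (ENSMUSG00000040048, chromosome 17, 24722060 to 24724478), an accessory subunit of the distal membrane arm with disulfide bonds, had 46.1 and 59.7 CPM in surgery against 67.7 and 77.5 CPM in control. Surgery replicate 1 was lowest and the groups did not overlap. The log2 fold change was -0.46 ± 0.14 (SE, edgeR unadjusted p = 0.00898, adjusted p = 0.402), and without surgery replicate 2 the adjusted p was 0.001. Without surgery replicate 1 the estimate was -0.28 (adjusted p = 0.747).

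Ndufb2 (ENSMUSG00000002416, chromosome 6, 39592574 to 39603382), a small accessory subunit of the distal membrane arm, had 23.5 and 21.2 CPM in surgery against 16.7 and 18.3 CPM in control. It was the only subunit at this level that was higher in surgery, with no overlap between the groups. For Ndufb2 the log2 fold change was 0.36 ± 0.15 (SE, edgeR unadjusted p = 0.0399, adjusted p = 0.479). With gene counts summed from the transcript table it was 0.07.

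Ndufa1 (ENSMUSG00000016427, chromosome X, 37187588 to 37191163), a membrane-anchored accessory subunit of the proximal arm, had 21.3 and 17.6 CPM in surgery against 20.5 and 35.7 CPM in control. Only control replicate 2 was high, and the groups overlapped. With all libraries the log2 fold change was -0.53 ± 0.23 (SE, edgeR unadjusted p = 0.0438, adjusted p = 0.487). It was -0.07 without control replicate 2, and without control replicate 1 the adjusted p was 0.0455.

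None of these 8 genes shared 200 or more bases at 95% identity or above with another gene, whereas 11 of the 46 members did. Exons of Ndufaf2, Ndufa3, Ndufa2 and Ndufb2 overlap those of another gene on the opposite strand (B230220B15Rik, Tfpt, Tmco6 and Braf among them). Whether the counting used strand is not given in the sources used here, so reads of these pairs may not be told apart. Exons of Ndufb2 also overlap those of Gm42420 on the same strand, where strand would not separate the reads. With no filter on low counts, 4 members passed the adjusted threshold, namely Ndufa2, Ndufa3, Ndufaf2 and Ndufb10, where 1.33% of all genes with a count passed.

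**Figure D2:**
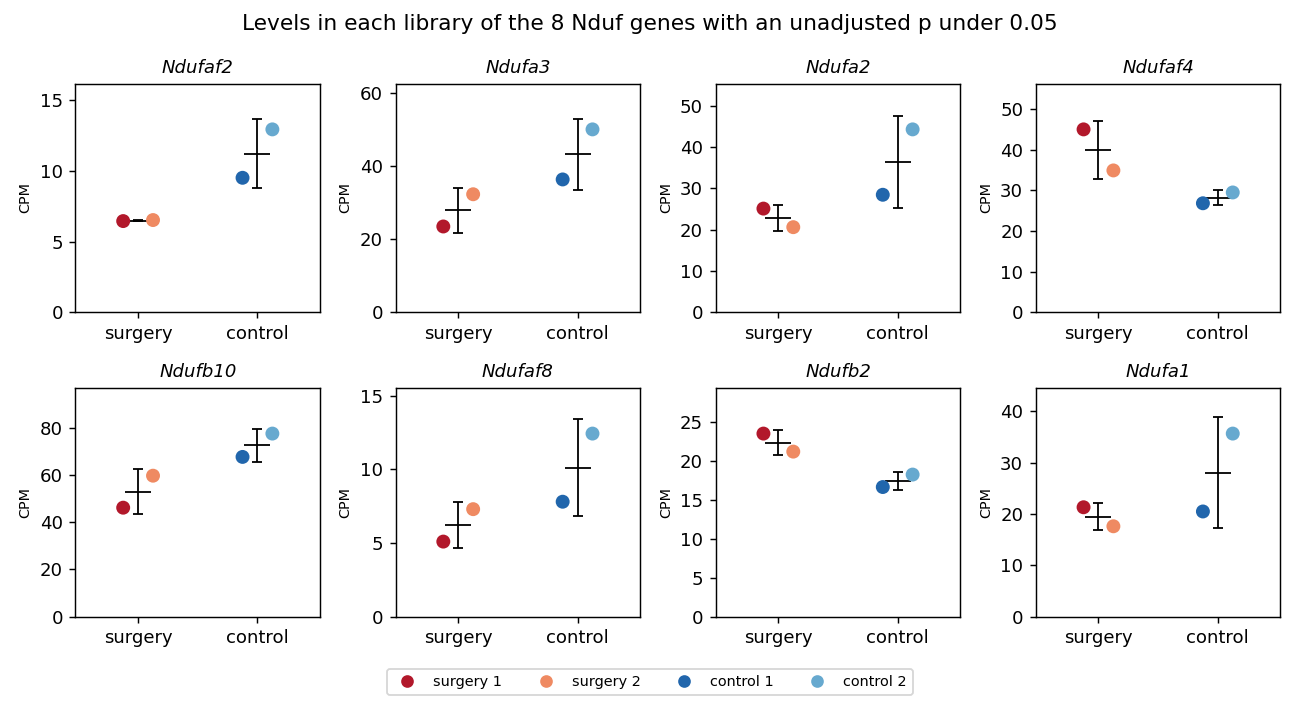
Level of the 8 genes with an unadjusted p under 0.05 in each library, in CPM on a linear axis from 0, surgery left and control right, with the mean and SD of each group of 2. Ndufaf4 and Ndufb2 have both surgery libraries above control, and in Ndufa2 and Ndufa1 control replicate 2 lies well above the other libraries.

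Both surgery libraries stood above both control libraries for 8 of the 46 members (17.4%), against 20.3% of all tested genes. Both stood below for 12 members (26.1%), against 22.3% of all tested genes, and the groups of the remaining 26 overlapped. These shares lie near those of all genes. The 8 above were Ndufaf4, Ndufb2, Ndufab1, Ndufb9, Ndufaf1, Ndufs4, Ndufv2 and Ndufs8. The 12 below included Ndufaf2, Ndufa3, Ndufa2, Ndufb10, Ndufaf8, Ndufv1, Ndufaf3, Ndufs5, Ndufc2, Ndufa5 and Ndufa7.

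The 7 nuclear core subunits, which carry out the electron transfer, were centred on a log2 fold change of 0.074, with 5 positive and 2 negative values. None of them was at an unadjusted p under 0.05, against 9.96% of all tested genes. Ndufv1, which holds the NADH site and the flavin, had 106 and 98.4 CPM in surgery against 114 and 121 CPM in control, without overlap. Its log2 fold change was -0.20 ± 0.11 (SE, edgeR adjusted p = 0.552), and -0.045 with an offset for GC content. Its partner Ndufv2, with an iron-sulfur cluster, lay on the other side, at 113 and 106 CPM in surgery against 105 and 94.7 CPM in control.

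Ndufs1, the large iron-sulfur subunit of the N module, had 135 and 119 CPM in surgery against 123 and 126 CPM in control, and the groups overlapped. Ndufs3, a scaffold of the Q module, had 71.1 and 63 CPM in surgery against 60.6 and 66.8 CPM in control. Ndufs7, which carries the last cluster before ubiquinone, had 82.5 and 75.7 CPM in surgery against 71.4 and 75.8 CPM in control. Ndufs8, another cluster-bearing subunit, had 55.5 and 52.3 CPM in surgery against 52.2 and 48.9 CPM in control, where surgery replicate 2 barely exceeded control replicate 1.

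By module the medians ran between -0.16 and 0.0059. For the 10 genes of the N module the median log2 fold change was -0.10 and 1 was lower at the unadjusted threshold, and for the 6 of the Q module it was 0.0059 and none was. In the proximal membrane arm (9 genes) it was -0.16 and 2 were lower, and in the distal membrane arm (11 genes) it was -0.15, and 1 was higher and 1 lower. Shares at that threshold were 10%, 0%, 22.2% and 18.2% in that order, against 9.96% of all tested genes. Every module held both positive and negative estimates.

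The 5 assembly factors not yet described had adjusted p-values above 0.59 by edgeR. Ndufaf1, of the complex that assembles the membrane arm, had 20.4 and 16.4 CPM in surgery against 15.6 and 14.8 CPM in control, a log2 fold change of 0.28 ± 0.17 (SE). Ndufaf3, the partner of Ndufaf4, had 22.4 and 22.6 CPM in surgery against 24.9 and 27.8 CPM in control, a log2 fold change of -0.23 ± 0.14 (SE). The partners Ndufaf3 and Ndufaf4 thus had estimates of opposite sign.

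Ndufaf5, which hydroxylates Ndufs7, had 21.9 and 21.4 CPM in surgery against 19.8 and 22.3 CPM in control. Both surgery libraries lay inside the range of control, unlike those of its partner Ndufaf8. Ndufaf6, which acts early in assembly, had 5.77 and 5.23 CPM in surgery against 5.36 and 5.19 CPM in control. Ndufaf7, a methyltransferase, had 37.8 and 30.6 CPM in surgery against 30.2 and 31.1 CPM in control, with overlap. Summed over the 8 assembly factors, the level was 165 and 145 CPM in surgery and 140 and 156 CPM in control.

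Compared per length, as FPKM deposited by the authors, the subunits had a median of 36.8 and the assembly factors 10.5, over means of 4 libraries, against 4.22 for all tested genes. The highest member was Ndufa4, named for complex I but since assigned to cytochrome c oxidase, with 87.7 and 90.7 FPKM in surgery against 85.9 and 110 FPKM in control. Ndufa8, an accessory subunit of the membrane arm, had 67.3 and 56.5 FPKM in surgery against 61.4 and 83.1 FPKM in control. The groups overlapped for both genes.

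The lowest member was Ndufa4l2, a paralog of Ndufa4 known to respond to hypoxia, with 1.09 and 3.17 FPKM in surgery against 2.9 and 1.77 FPKM in control. Its counts of 23 and 63 in surgery and 61 and 35 in control were spread widely in both groups. Ndufaf2 followed with 2.15 and 2.16 FPKM in surgery against 3.13 and 4.46 FPKM in control. Ndufb2 had 4.17 and 3.73 FPKM in surgery against 2.91 and 3.33 FPKM in control, on a gene length of 5630 bases implied by the deposited values. That length lowers its FPKM relative to its CPM.

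Surgery replicates 1 and 2 were the highest of the 4 libraries for 16 and 4 of the 46 members, against 2 and 24 members for control replicates 1 and 2. Most of the members highest in control replicate 2 were subunits, 20 of the 38. The shares of all tested genes that were highest in each library were not computed. These counts therefore cannot be read as particular to the members. Summed over the 38 subunits, the level was 2083 and 2086 CPM in surgery against 2100 and 2313 CPM in control. Control replicate 1 was thus close to both surgery libraries. Without control replicate 2, the log2 fold change was positive for 18 subunits and negative for 20. The median over all tested genes was 0.0014 in that fit.

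Control replicate 2 stood out more in the short subunits than in the longer ones. For the 10 subunits with a gene length under 1000 bases, the median level relative to each gene's mean was -0.12 and -0.061 in surgery and -0.016 and 0.35 in control, in log2 CPM. For the 28 longer subunits it was -0.04 and -0.0091 in surgery and 0.0089 and 0.037 in control. The median log2 fold change was -0.24 for the short and -0.049 for the longer subunits, beside -0.083 for all 1127 tested genes under 1000 bases and 0.0032 for the 16109 longer genes. The cut at 1000 bases was chosen with values known.

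Across the 46 members, log2 fold change and gene length correlated at Spearman's rho of 0.42, against 0.11 over all tested genes, a description over genes of the same 4 libraries. With GC content rho was -0.28 over the members and -0.45 over all tested genes. Within libraries, level relative to the gene's mean and length of the members correlated at 0.36 and 0.26 in surgery and 0.003 and -0.46 in control. With an offset for length the subunit median was -0.064, and with one for GC content it was -0.072. Length, library and group cannot be told apart in full with 2 libraries per group.

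**Figure D3:**
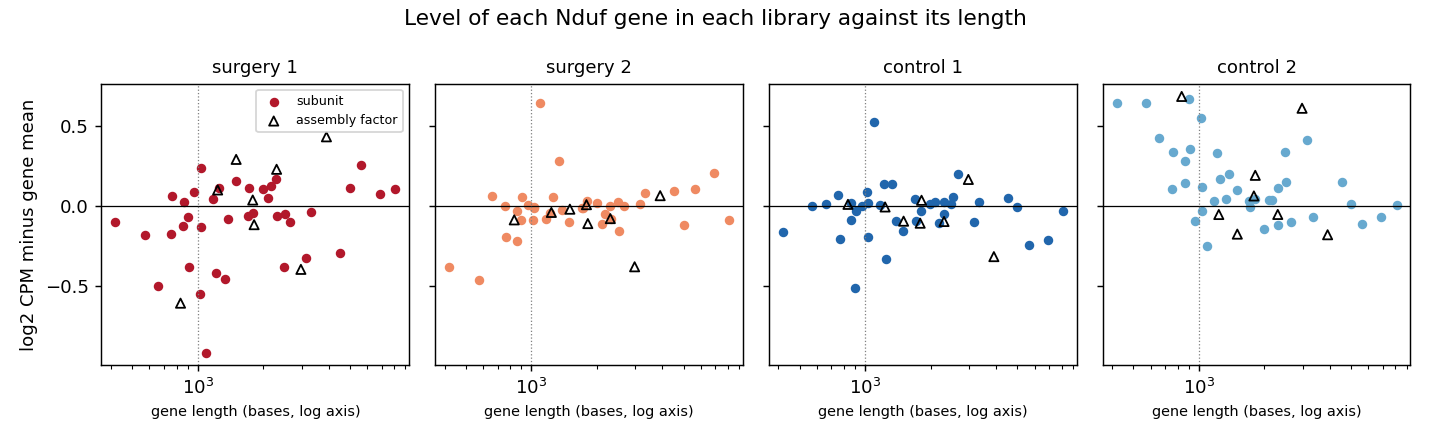
Log2 CPM of each member minus the gene's mean over 4 libraries, against gene length in bases on a log axis, 1 panel per library, with subunits as filled points and assembly factors as open triangles and a dotted line at 1000 bases. In control replicate 2 the short subunits lie above 0, with a median of 0.35 under 1000 bases, while the other libraries have medians between -0.12 and -0.016 there.

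The complex I genes of mitochondrial DNA were mostly higher in the surgery libraries, and how they differ from the nuclear genes was not tested. Of 7 genes, 6 had both surgery libraries above both control libraries (85.7%, against 20.3% of all tested genes). At an unadjusted p under 0.05, 4 were higher (57.1%, against 4.33% of all tested genes). The median log2 fold change was 0.52. edgeR called 0 of them at an adjusted p under 0.05, and DESeq2 called 3, with 0.636% of all genes that had one. Their GC content ran from 33.0% (mt-Nd3) to 41.1% (mt-Nd4l), below the median of 49.4% over all tested genes. Over all tested genes, log2 fold change and GC content correlated at Spearman's rho of -0.45. The part of GC content in the values of these genes was not tested. mt-Nd6, a membrane subunit and the only one of them encoded on the light strand, had 2439 and 1647 CPM in surgery against 1275 and 1107 CPM in control, a log2 fold change of 0.78 ± 0.21 (SE, edgeR adjusted p = 0.369). mt-Nd2, a proton-pumping subunit, had 5844 and 5348 CPM in surgery against 3812 and 3245 CPM in control, a log2 fold change of 0.67 ± 0.21 (SE, edgeR adjusted p = 0.406). Both genes were higher in each surgery library than in each control library. The exception was mt-Nd4l, with 14.3 and 8.02 CPM in surgery against 14 and 14.7 CPM in control.

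Summed over the 7 genes, the level was 25184 and 25480 CPM in surgery against 19618 and 16473 CPM in control, while the 38 nuclear subunits had the sums given above. Mitochondrial DNA as a whole gave 6.32% and 6.61% of the counts in surgery and 5.25% and 4.51% in control. The share of mitochondrial RNA in a library and its level per cell cannot be told apart here.

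**Figure D4:**
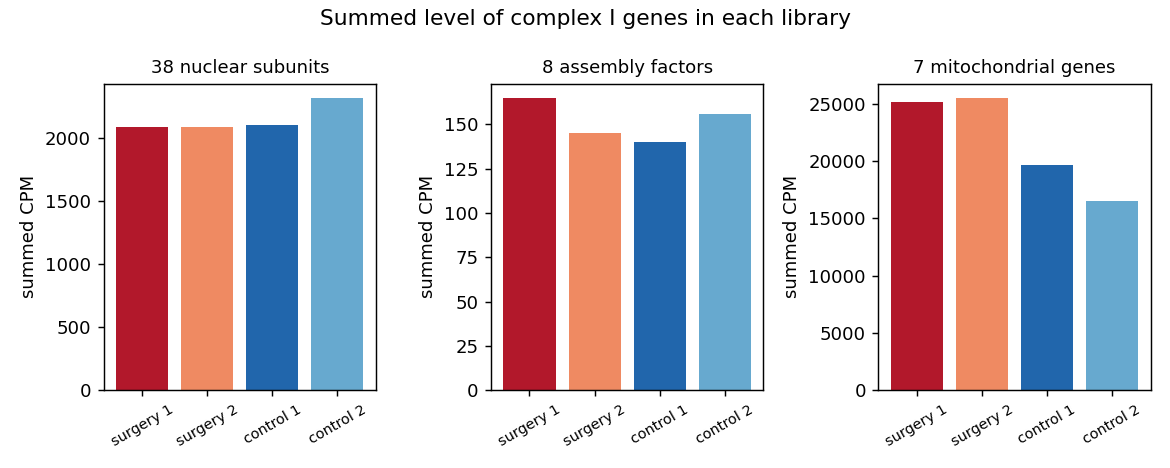
Summed CPM per library, surgery left of control, of the 38 nuclear subunits, the 8 assembly factors and the 7 complex I genes of mitochondrial DNA, on linear axes from 0. The mitochondrial sums are 25184 and 25480 in surgery and 19618 and 16473 in control, whereas the sums of the nuclear subunits in 3 of the 4 libraries lie between 2083 and 2100.

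Other genes of respiration gave a frame for these values. Of 13 assembly factors of complex I without an Nduf symbol, 7 had positive and 6 negative estimates, with a median of 0.023. Tmem126b, of the same assembly complex as Ndufaf1, had 39.7 and 38.4 CPM in surgery against 33.1 and 30.3 CPM in control (log2 fold change 0.30 ± 0.13 SE, edgeR adjusted p = 0.477). Foxred1, an assembly factor with an oxidoreductase fold, had 23.8 and 27.3 CPM in surgery against 32.4 and 31.2 CPM in control (log2 fold change -0.32 ± 0.14 SE, edgeR adjusted p = 0.487). These were the only ones of the 13 at an unadjusted p under 0.05 (15.4%, against 9.96% of all tested genes).

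Among the 45 tested nuclear subunits of complexes II to V, the middle estimate was -0.062 on the log2 scale. At the unadjusted threshold 1 was higher and 8 were lower in surgery (20%, against 9.96% of all tested genes). None passed the adjusted threshold with edgeR, and DESeq2 called 2 as lower, with 0.636% of all genes that had an adjusted p. The 77 mitochondrial ribosomal proteins had a median of -0.03, with 1 higher and 4 lower (6.49%). Within complexes II to V, the 9 subunits of complex III had a median of -0.23, with 4 positive and 5 negative values and 3 lower (33.3%). This median was below that of the complex I subunits, a difference that was not tested.

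The transcript table held 192 transcripts of the 46 genes, of which 151 were tested. edgeR called 0 of them at an adjusted p under 0.05, and 2 at an unadjusted p under 0.05, with 6% of all 65665 tested transcripts. limma-voom called 0 at the adjusted threshold. DESeq2, run with no count filter, called 2 transcripts of the members, with 3.91% of the transcripts that had an adjusted p, and 1 of these was among the 151. The values are estimated counts by a tool that is not given in the sources used here, and they summed to 3.88 times the gene counts.

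Ndufs5-203 (ENSMUST00000106207, 680 bases, protein coding) had 781 and 790 estimated counts in surgery against 156 and 229 in control. Both surgery libraries were far above both control libraries. The log2 fold change was 2.05 ± 0.43 (SE, edgeR unadjusted p = 0.0119, adjusted p = 0.534), and DESeq2 called it with an adjusted p of 0.028. Ndufs5 codes for an accessory subunit on the intermembrane side of the proximal arm. Its main transcript Ndufs5-201 had 2151 and 2726 estimated counts in surgery against 3187 and 3052 in control. The share of Ndufs5-203 in the gene's estimated counts was 23% in surgery and 5.42% in control, and that of Ndufs5-201 71.5% in surgery and 87.8% in control. The gene as a whole had 50.6 and 54 CPM in surgery against 55.9 and 61.1 CPM in control, a log2 fold change of -0.16 ± 0.12 (SE, edgeR adjusted p = 0.66). Ndufs5 shares sequence with a pseudogene, BC002163, and reads of these may be split between them.

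Ndufv1-206 (ENSMUST00000134049, 692 bases, retained intron) had 73 and 85 estimated counts in surgery against 214 and 181 in control, with no overlap. The log2 fold change was -1.29 ± 0.43 (SE, edgeR unadjusted p = 0.0463, adjusted p = 0.813). It made up 1.8% of the gene's estimated counts in surgery and 3.78% in control. The main coding transcript Ndufv1-201 made up 89.9% in surgery and 89% in control.

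Across 17 ways of processing, the 8 genes kept the sign of their log2 fold change in each one. The genes were chosen by their p in edgeR's fit with all libraries, and every setting used these same libraries. The kept sign is therefore a description and no independent support. The size moved most for Ndufa1, whose estimate came close to 0 without control replicate 2.

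**Figure D5:**
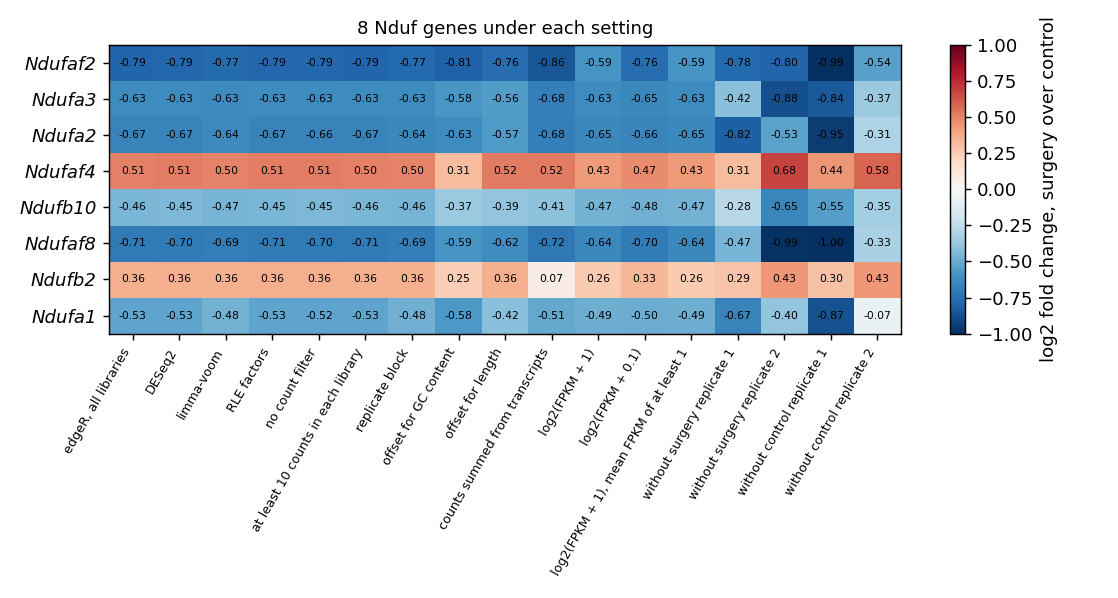
Log2 fold change, surgery over control, of the 8 genes (rows) under 17 settings (columns), with the value in each cell and colour from -1 to 1. No cell changes sign within a row, and Ndufa1 without control replicate 2 and Ndufb2 with transcript sums are both at 0.07 in size.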

How the data were processed

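RNA of the mouse hippocampus was sequenced from 2 surgery and 2 control libraries, grouped by the sample labels. The authors aligned reads with HISAT2 to mm10 and deposited counts per gene from HTSeq (given as version 5.4.2), FPKM values per gene and transcript, and estimated counts per transcript. The annotation release and the tool for transcripts are not given in the sources used here. Deposited FPKM values equal counts divided by a length and the column total. That length is used above as gene length.

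Surgery was tested against control by the quasi-likelihood test of edgeR 4.0.16 (R 4.3.3) after TMM scaling. The filter was filterByExpr, set to a minimum count of 10 and a minimum total of 15. Benjamini-Hochberg adjustment ran over all 17236 genes or 65665 transcripts, with a threshold of 0.05. The SE of a log2 fold change is its size over the square root of F. Shared sequence was found with blastn 2.17.0 from the lowest-numbered coding transcript of each member, and positions and names came from GENCODE on GRCm38. The code was tested on simulated data.

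Genes with values per library were the members with an unadjusted p under 0.05, the 3 highest and 3 lowest by mean FPKM, all assembly factors and the core subunits. The values of 1 member are not reported here. Transcripts were those at an unadjusted p under 0.05. Members, gene lists, motifs and the length limit were chosen with earlier results of these data known. Alternatives were DESeq2 1.42.0, limma-voom (limma 3.58.1), RLE scaling, filters of none or of 10 counts in every library, the replicate number as a block, leaving out each library, limma-trend on log2(FPKM + 1), on log2(FPKM + 0.1) or with a mean FPKM of at least 1, sums of transcript counts, and offsets for GC content or length (span 0.3, genes above a log2 CPM of 3).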

Additional observations from a re-analysis of the deposited data

How the results depend on the processing

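With all libraries 8 members were at an unadjusted p under 0.05 (9.96% of all tested genes), and 0 passed the adjusted threshold. The shares of all genes with 1 library left out are given above for both thresholds. With no count filter 4 members passed the adjusted threshold, where 1.33% of all genes with a count did. The calls were 1 without surgery replicate 1, 7 without surgery replicate 2, 2 without control replicate 1 and 0 without control replicate 2. The number at an unadjusted p under 0.05, 8, was 3 with log2(FPKM + 1) (6.98% of all genes), 4 with log2(FPKM + 0.1) (6.93%), 1 with counts summed from transcripts (5.16%) and between 5 and 15 with 1 library left out. The subunit median of -0.12 was -0.051 with transcript sums, -0.064 with the length offset and between -0.11 and -0.025 with 1 library left out. The assembly factor median of 0.052 was -0.24 with transcript sums, over which 45 members were tested, and between -0.0027 and 0.096 with 1 library left out. The number of transcripts at an unadjusted p under 0.05, 2, was 7 with DESeq2 (7.3% of all transcripts), 6 with limma-voom (5.45%) and between 4 and 7 with 1 library left out (6.22% to 8.06%), and DESeq2 called 2 at the adjusted threshold.

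Replicate numbers are shared by the groups, but the labels give no common source. Same-numbered libraries deviated together with a correlation of 0.13 over all genes and -0.23 over the members. With the replicate block 12 members were at an unadjusted p under 0.05 (13.6% of all genes), 0 passed the adjusted threshold and 1 transcript was at an unadjusted p under 0.05 (3.88% of all transcripts).

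Sign changes of single genes are given only for the genes chosen above to have values per library. Other members, such as Ndufb5 with an estimate of -0.0033, are not covered. Among the genes covered, small estimates changed sign. With the GC offset these were Ndufa4l2 (0.088), Ndufaf5 (-0.056), Ndufs1 (-0.063) and Ndufv2 (-0.012), and with transcript sums Ndufaf6 (-0.36), Ndufaf7 (-0.20) and Ndufs8 (-0.34). With 1 library left out, estimates spanned 0 for Ndufa4 (-0.25 to 0.046), Ndufa4l2 (-1.10 to 0.46), Ndufa8 (-0.37 to 0.0026), Ndufaf5 (-0.038 to 0.14), Ndufaf6 (-0.0058 to 0.13), Ndufs1 (-0.069 to 0.12) and Ndufs3 (-0.011 to 0.16). In the transcript sums, Ndufaf7 held far fewer counts than in the gene counts, as given above. Ndufs8 had 961 and 736 estimated counts in surgery and 1021 and 1133 in control. These were near its gene counts, where the whole transcript table summed to 3.88 times the gene counts. The cause of the sign changes was not tested.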

Other observations

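Regulators of mitochondrial gene expression, a list of 10 genes, were centred on a log2 fold change of -0.0055, with 5 positive and 5 negative values. Esrra, a nuclear receptor that acts at genes of respiration, had 25 and 32.7 CPM in surgery against 40.9 and 53.2 CPM in control, a log2 fold change of -0.70 ± 0.17 (SE, edgeR unadjusted p = 0.00185, adjusted p = 0.34). Ppargc1b, a coactivator of Esrra, had 6.86 and 8.02 CPM in surgery against 12.9 and 12.1 CPM in control, a log2 fold change of -0.75 ± 0.19 (SE, edgeR unadjusted p = 0.00253, adjusted p = 0.344). For both, the surgery libraries lay below the control libraries, although 0 passed the adjusted threshold. These were the only ones of the 10 at an unadjusted p under 0.05 by edgeR (20%, against 9.96% of all tested genes). Both surgery libraries stood below both control libraries for 2 of the 10 (20%, against 22.3% of all tested genes). They stood above for 3 (30%, against 20.3%). Ppargc1a, a relative of Ppargc1b, had 53.9 and 56.5 CPM in surgery against 52.6 and 44.9 CPM in control, and Nrf1 had 18.5 and 18.7 CPM in surgery against 20.5 and 18.6 CPM in control.

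The pseudogene Ndufab1-ps, left out of the members by its symbol, had counts of 189 and 159 in surgery against 86 and 83 in control. Its log2 fold change was 1.04 ± 0.21 (SE, edgeR unadjusted p = 0.000544, adjusted p = 0.278), larger in size than that of any member. Its sequence is shared with Ndufab1, the mitochondrial acyl carrier protein, which had 43.2 and 47.2 CPM in surgery against 35.4 and 39.1 CPM in control, so reads of the pair may be split between them.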
